A study of Homo sapiens with 8 samples.

Results

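The CD3 complex and the surface proteins that mark T cells were followed through 10 genes in the CCRF-CEM cell line, which was derived from a human acute lymphoblastic leukaemia of T cells (T-ALL) and is long established. The genes were taken as the probe sets whose platform symbol was CD3D, CD3E, CD3G, CD247, CD4, CD8A, CD8B, CD2, CD5 or CD7, the probe set with the highest mean standing for a gene with several. All 10 were found among 17687 genes (21448 probe sets), each with 1 probe set. Treated cells received 1 µM OICR-9429, a small molecule that blocks the site of WDR5 that binds MLL-family histone methyltransferases, for 1 h and were then held for 1 h in type I collagen at 1.7 mg/mL. Untreated cells went into the same gel for 1 h without OICR-9429, and the labels mention no solvent for them. Each group has 4 arrays, numbered 1 to 4 as biological replicates. All samples come from 1 cell line, and the labels do not say whether the numbers mark separate cultures or days, so p-values measure only the spread between these samples, which may be technical.

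The CD3 chains carry the signal of the T-cell receptor, since the receptor's own chains have almost no part inside the cell. CD3D, CD3E and CD3G form pairs around the receptor, and CD247, the zeta chain, adds most of the tyrosine motifs that the kinase LCK phosphorylates and to which ZAP70 binds. CD4 and CD8 bring LCK to the complex by binding MHC molecules. In T-ALL these proteins are used to place a leukaemia along thymocyte development, and CD7 and CD5 are among the markers that blasts most often keep.

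Values are log2 expression after RMA, so a difference of 1 is 2-fold. The arrays had medians of 6.38 to 6.46, and precision is limited by how few arrays there are. Probe sets differ in how they respond to RNA, so which of 2 genes has the higher level is not read from them. As a rough guide to signal over background, the 348 measured olfactory receptor genes, which are little used outside olfactory tissue, had a median level of 3.39, a 95th percentile of 4.82 and a highest level of 6.51. All 10 T-cell genes had means above that 95th percentile, as did 72.5% of all probe sets. Of the 10, 7 were above the highest olfactory receptor, a level close to the array medians. The other 3, CD8A, CD8B and CD2, lay among the brightest olfactory receptors, and their probe sets have less margin over background. RNA was taken from whole cultures, where fewer cells with a transcript and less of it per cell cannot be told apart.

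With OICR-9429, CD3D, which encodes the delta chain, measured 11.35, 11.04, 10.98 and 11.57 on arrays 1 to 4, against 11.19, 11.25, 11.10 and 11.74 in untreated cells. CD3E, the epsilon chain that pairs with both delta and gamma, measured 11.81, 11.95, 11.61 and 11.97 in treated cells, against 11.75, 11.91, 11.66 and 11.94 in untreated cells. CD3G, the gamma chain, measured 10.87, 10.59, 10.91 and 10.51 in treated cells, against 10.83, 10.76, 10.80 and 10.29 in untreated cells. For all 3 genes the groups overlapped along most of their range. In CD3E the same array numbers were high (2 and 4) or low (3) in both groups, and the 2 arrays of a number lay within 0.06 of each other. CD247 measured 8.76, 9.08, 9.09 and 10.16 in treated cells, against 8.64, 9.06, 9.11 and 10.15 in untreated cells. Here array 4 stood about 1 unit above the next array in both groups, and the groups overlapped.

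Among the coreceptors, CD4, which binds MHC class II, measured 8.44, 8.35, 9.33 and 10.50 in treated cells, against 8.35, 8.57, 9.69 and 10.53 in untreated cells. Numbers 1 and 2 were low, number 3 intermediate and number 4 high in both groups. CD8A, the alpha chain of the MHC class I coreceptor, measured 6.0, 5.63, 6.08 and 6.32 in treated cells, against 6.29, 6.02, 6.10 and 5.56 in untreated cells. No array number was the highest or the lowest in both groups for this gene, and array 4 was the highest of the treated and the lowest of the untreated arrays. CD8B, the beta chain, measured 5.76, 5.25, 5.50 and 5.95 in treated cells, against 6.03, 5.41, 5.69 and 6.05 in untreated cells. Its treated array was lower at every number, by 0.10 to 0.27, while the groups overlapped.

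CD2, an adhesion receptor that binds CD58, measured 6.26, 6.09, 7.13 and 6.23 in treated cells, against 6.33, 5.96, 7.16 and 6.80 in untreated cells. Array 3 was the highest in both groups. CD5, a scavenger-family receptor that dampens T-cell receptor signals, measured 9.66, 9.54, 9.51 and 10.67 in treated cells, against 9.65, 9.78, 9.88 and 10.67 in untreated cells. Array 4 was the highest in both groups, at the same value. CD7, an immunoglobulin-family protein and a target of antibody and CAR T-cell approaches in T-ALL, measured 9.37, 8.42, 8.79 and 9.60 in treated cells, against 9.17, 8.60, 9.18 and 9.47 in untreated cells. Array 2 was the lowest in both groups.

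**Figure D1:**
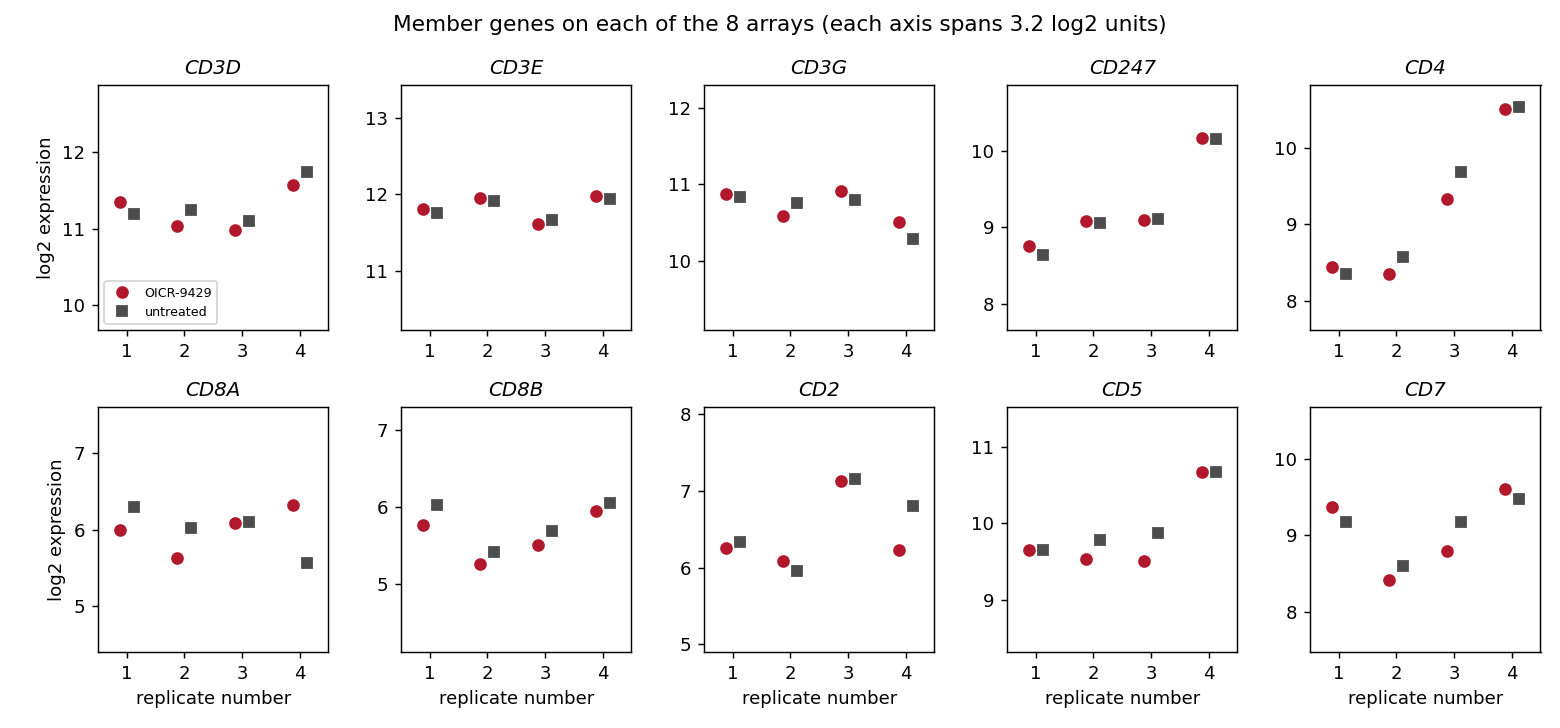
Log2 expression (vertical axis, 3.2 units in each panel) of the 10 genes against replicate number, with OICR-9429 arrays as circles and untreated arrays as squares. Replicate number holds over 75% of the spread in 9 of the genes, CD4 reaches 10.50 and 10.53 at number 4, and CD8A stands at 6.32 and 5.56 on the arrays of number 4.

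None of the 10 genes passed the threshold between treated and untreated cells. With limma and Benjamini-Hochberg adjustment over all 21448 probe sets, 0 of 10 passed an adjusted p of 0.05, and so did 0% of all probe sets. At an unadjusted p of 0.05 the count was 0 of 10, against 0.49% of all probe sets. With the replicate number as a block, 0 of 10 passed at an adjusted p (0% of all probe sets) and 0 of 10 at an unadjusted p (5.55% of all probe sets). Of the 10 differences 4 lay above 0 and 6 below, with a median of -0.07 on the log2 scale, against 0.0050 over all probe sets. The values of the groups overlapped in 10 of 10 genes, and they did not overlap in 0.737% of all probe sets.

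The sizes of these differences were small beside the spread between arrays. CD8B had the lowest difference, with means of 5.62 ± 0.31 in treated and 5.80 ± 0.31 in untreated cells (SD, n = 4 each), so treated minus untreated was -0.18 ± 0.21 (SE) on the log2 scale. It was the only one of the 10 genes with the same sign in all 4 pairs, which 12.6% of all probe sets had. CD5 averaged 9.85 ± 0.55 in treated and 10.00 ± 0.46 in untreated cells (SD, n = 4 each), which put treated minus untreated at -0.15 ± 0.31 (SE). CD4 averaged 9.16 ± 1.00 and 9.29 ± 1.02 (SD, n = 4 each) in treated and untreated cells, and the difference of -0.13 ± 0.58 (SE) had the widest interval, from -1.44 to 1.18 on the log2 scale. The CD3 chains lay close to 0: the log2 difference was 0.02 ± 0.15 (SE) for CD3E, 0.03 ± 0.38 for CD247, 0.05 ± 0.18 for CD3G and -0.09 ± 0.20 for CD3D. Of the remaining genes CD8A stood at 0.02 ± 0.21, CD7 at -0.06 ± 0.29 and CD2 at -0.14 ± 0.31 (SE).

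Taking the difference within each number removed most of that spread. The SE was smaller with the block in 10 of 10 genes, and its median over the 10 was 0.11, against 0.25 without the block. For CD4 the treated-minus-untreated differences were 0.09, -0.22, -0.36 and -0.03 at numbers 1 to 4, with a blocked SE of 0.11. CD8B differed by -0.27, -0.16, -0.19 and -0.10, with a blocked SE of 0.094 in place of 0.21. It did not pass with the block (limma, unadjusted p = 0.0928, adjusted p = 0.841). CD247 differed by 0.12, 0.02, -0.02 and 0.01, the narrowest set apart from CD3E. CD8A differed by -0.29, -0.39, -0.02 and 0.76, the widest set of the 10, so its mean near 0 is made of differences in both directions. CD2 differed by -0.07, 0.13, -0.03 and -0.57, with most of its mean coming from number 4. With the block, the 95% interval of every one of the 10 genes lay within 1.5-fold in either direction. Those intervals are for the mean difference and borrow their error partly from all probe sets through limma's eBayes step. Single pairs can lie outside them, as did CD8A at number 4, CD2 at number 4 and CD7 at number 3 (-0.39).

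**Figure D2:**
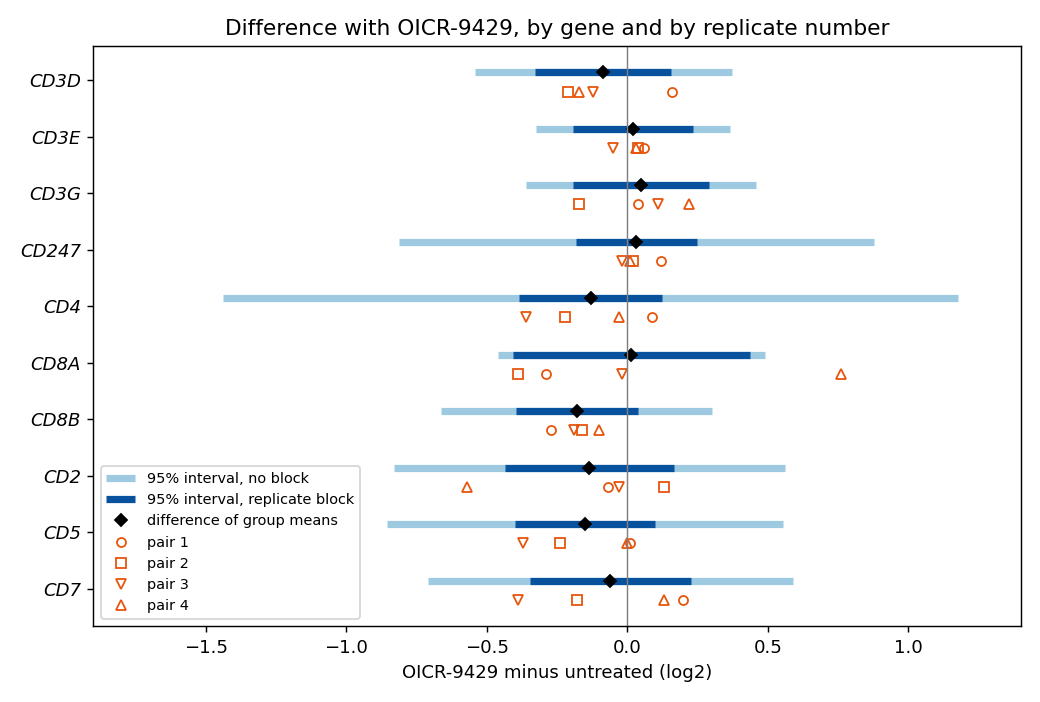
Log2 difference between OICR-9429 and untreated cells (horizontal axis) for each gene, with diamonds for the difference of group means, light bars for the 95% interval without and dark bars for that with the replicate block, and open symbols for the 4 same-numbered pairs. Every interval includes 0, and the CD4 interval narrows from the light bar (-1.44 to 1.18) to the dark one (-0.38 to 0.12).

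Replicate number, and not treatment, separated the arrays. It held 85.5% of the sum of squares over all probe sets, against 3.93% for treatment and 10.6% for the remainder. Number has more levels than treatment, so it takes a larger share even where neither has an effect. Among the 10 genes the share held by number was 99.7% for CD247, 98.5% for CD4, 96.8% for CD3E and 93.9% for CD5, and it was above 75% in 9 genes. CD8A was the exception at 23.7%. The treatment share was highest for CD8B at 10.4%, where number held 88.4% and the remainder 1.2%. The total spread differed greatly between genes: CD4 had a sum of squares of 6.13 and CD3E one of 0.136, so the high share of CD3E describes a narrow range.

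**Figure D3:**
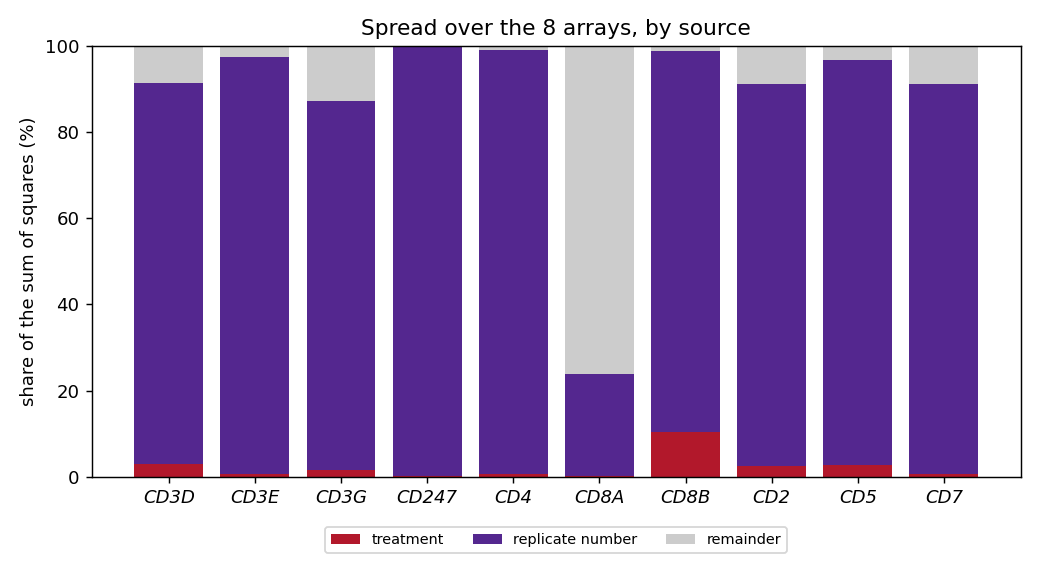
Share of each gene's sum of squares over 8 arrays (vertical axis, percent) held by treatment, replicate number and remainder, as stacked bars. Number takes over 75% in 9 genes, and the remainder takes 76.2% in CD8A.

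In a limma model with number and treatment, 7 of the 10 genes differed between numbers (F test, adjusted p under 0.05): CD4 (adjusted p = 0.000207), CD247 (0.000489), CD5 (0.00217), CD2 (0.0064), CD7 (0.0077), CD8B (0.0119) and CD3D (0.0333). Of all probe sets 50.3% passed, and of those at or above the median level 71.7%, so the count is near the background of these arrays. CD3G, CD3E and CD8A had adjusted p = 0.0821, 0.186 and 0.666 by limma. With trend and robust eBayes 9 of the 10 passed, against 54.6% of all probe sets, CD3G and CD3E among them (limma, adjusted p = 0.00182 and 0.0021). CD3G also passed with a filter on dim probe sets (adjusted p = 0.0258) and without number 2 (0.0477), but not with quantile normalization (0.254). These tests use 2 arrays a number, and their error is the scatter of the 4 within-number differences, so the spread between separate cultures is not measured. Without number 4, 2 of the 10 passed (CD4 and CD2), against 13.9% of all probe sets.

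Number 4 stood apart for 7 of the 10 genes, and the direction was not shared by all CD3 chains. Such calls were also common over all probe sets, as given below. CD4 was higher by 1.73 ± 0.13 (SE) on the log2 scale at number 4 than the mean of the other numbers, a 3.31-fold difference, and CD247 by 1.20 ± 0.11, or 2.29-fold (limma, adjusted p = 4.6e-05 and 9.3e-05). CD5 was higher by 1.00 ± 0.12 (adjusted p = 0.00038), CD7 by 0.61 ± 0.14, CD3D by 0.50 ± 0.12 and CD8B by 0.39 ± 0.11 (limma, adjusted p = 0.0079, 0.0091 and 0.0167). Without number 2, CD7 stood at 0.41 and CD8B at 0.255 (limma, adjusted p = 0.0702 and 0.117), and CD8B also missed the threshold with trend and robust eBayes (adjusted p = 0.0522). CD3G was lower, by -0.39 ± 0.12 (limma, adjusted p = 0.0256), but with quantile normalization the difference was -0.28 with adjusted p = 0.0922, and it stood at -0.365 without number 1 and -0.363 without number 3 (adjusted p = 0.0673 and 0.0758). CD3E (0.17 ± 0.11), CD8A (-0.08 ± 0.21) and CD2 (0.03 ± 0.15) did not pass. The counts of 6 higher and 1 lower compare with 26.3% and 25.5% of all probe sets, and with 26.3% and 41.5% of those at or above the median level. CD4, CD247 and CD5 were higher by 2-fold or more, as were 2.72% of all probe sets. The median of the 10 differences was 0.45, against 0.08 over all probe sets and -0.15 over those at or above the median level.

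The other numbers differed for fewer of the genes. At number 1, CD4 was lower by -1.10 ± 0.13 and CD247 by -0.74 ± 0.11 (SE, limma, adjusted p = 0.00258 and 0.00531), with 2 of 10 genes lower and 0 higher, against 6.14% and 10.6% of all probe sets. At number 2, 4 of 10 were lower and 0 higher, against 11.6% and 15.4% of all probe sets: CD4 by -1.01 ± 0.13, CD7 by -0.75 ± 0.14, CD2 by -0.63 ± 0.15 and CD8B by -0.50 ± 0.11. At number 3 only CD2 passed, at 0.87 ± 0.15 (limma, adjusted p = 0.0405), where 1.18% of all probe sets were higher, and it did not pass with quantile normalization. Each number is set against the mean of the others, so these contrasts include number 4. Without number 4, which also leaves fewer arrays, 1 gene passed at number 1 (CD4), 3 at number 2 (CD2, CD4 and CD7) and 2 at number 3 (CD2 and CD4). CD2 at number 2 also did not pass without number 3.

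**Figure D4:**
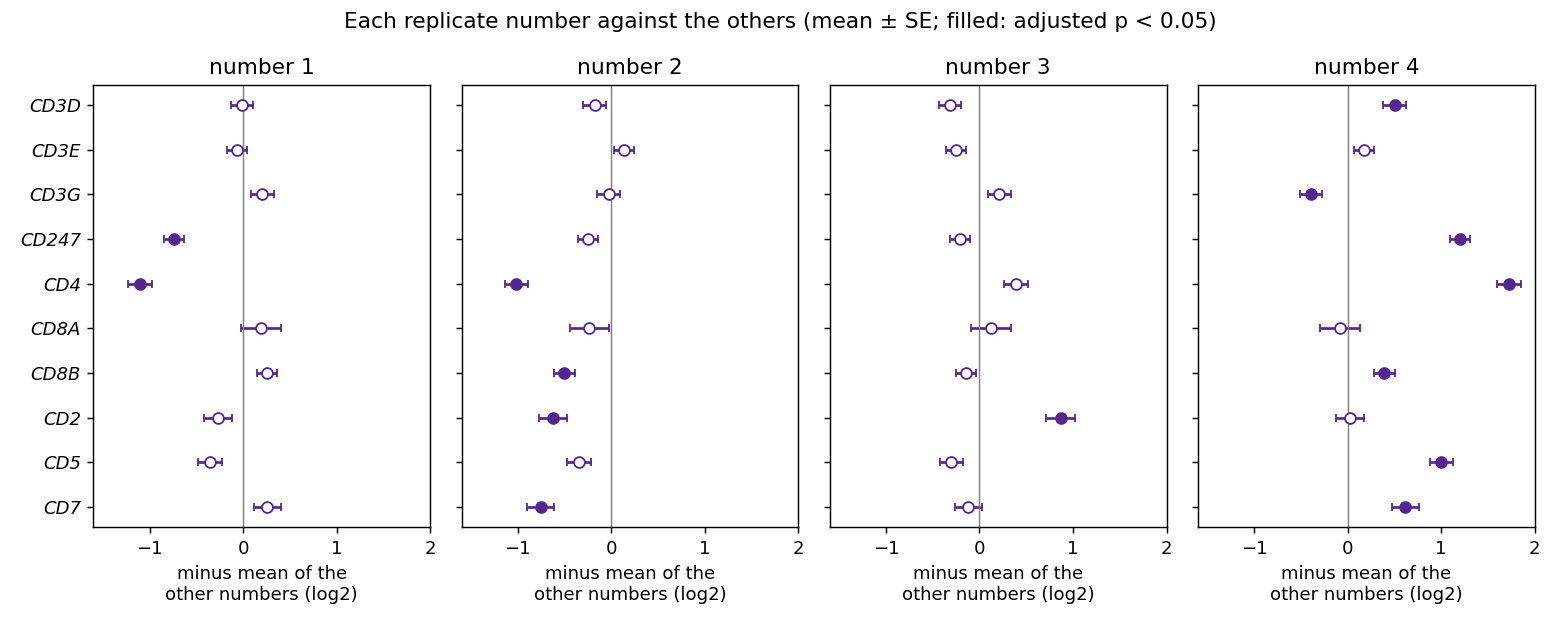
Log2 difference of each replicate number from the mean of the other numbers (horizontal axis) for the 10 genes, as mean ± SE, with filled circles for adjusted p under 0.05. At number 4, CD4 lies at 1.73 and CD3G at -0.39, and at number 3 only CD2 is filled.

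The order of the numbers differed from gene to gene. For CD4 it ran from number 4 to 3 to 2 to 1. Number 4 was above number 3 by 1.00 ± 0.16 (SE, limma, adjusted p = 0.00188) and number 3 above number 2 by 1.05 ± 0.16 (adjusted p = 0.0187), while numbers 2 and 1 differed by 0.06 ± 0.16 and did not pass. CD247 and CD5 had the same order, but only the top step passed: 1.06 ± 0.13 for CD247 and 0.98 ± 0.15 for CD5 (limma, adjusted p = 0.0008 and 0.00198), with 0.03 ± 0.13 and 0.04 ± 0.15 between numbers 3 and 2. For CD2 number 3 was on top, above number 4 by 0.63 ± 0.18 (limma, adjusted p = 0.0274). In CD3D, CD3E, CD3G, CD8A, CD8B and CD7 no neighbouring numbers differed at the threshold. CD3E had a range of number means of 0.32, the narrowest with CD8A, and CD4 one of 2.12, the widest.

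CD3D, CD3E and CD3G lie next to each other on chromosome 11 in the RefSeq annotation, with CD3D between the other genes, and CD3D is read in the opposite direction to its neighbours. CD3D and CD3G kept no fixed ratio over these arrays. The CD3D value minus the CD3G value was 0.48, 0.45, 0.07 and 1.06 on treated arrays 1 to 4, against 0.36, 0.49, 0.30 and 1.45 on untreated arrays. The 2 arrays of number 4 are the highest of the 8. CD3D minus CD3E spanned less, with -0.46, -0.91, -0.63 and -0.40 on treated arrays, against -0.56, -0.66, -0.56 and -0.20 on untreated arrays, and number 4 was again the highest in each group. These differences were chosen after the values were seen and were not tested. Only their change over arrays can be read, not their sign, and they do not say which gene moved.

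**Figure D5:**
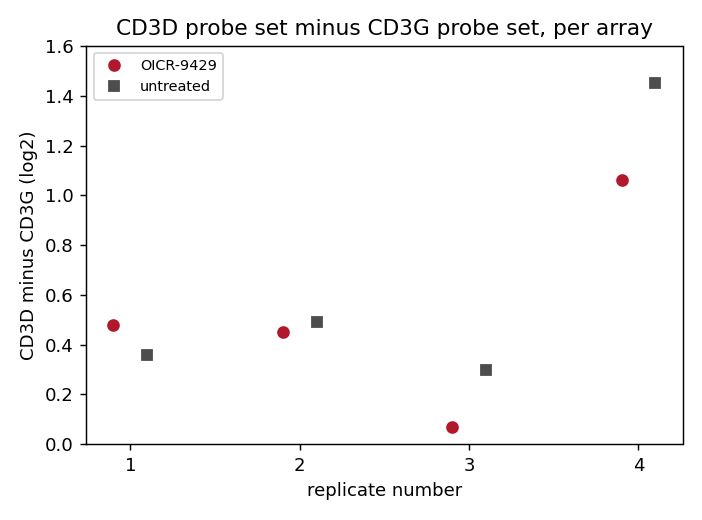
Log2 value of the CD3D probe set minus that of the CD3G probe set (vertical axis) on each array, by replicate number, with OICR-9429 as circles and untreated as squares. Number 4 lies at 1.06 and 1.45, and the other arrays lie between 0.07 and 0.49.

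The promoter windows printed are those of CD3D, CD247 and CD2, the genes with 1 RefSeq entry each. RefSeq entries matched 4 of the 10 genes, and CD8A has several starts and is not printed. Each sequence holds the 250 bases before the annotated start, 5′ to 3′ on the gene's strand, from RefSeq (GRCh38.p14): CD3D at chr11:118342706-118342955 and CD247 at chr1:167518530-167518779, both on the minus strand, and CD2 at chr1:116754180-116754429 on the plus strand. Capitals mark matches on either strand to any of 5 short motifs. The first motif is AGGAAG, like the core that ETS factors bind. The others searched were the GATA-like motif AGATAA, then the RUNX-like motif TGTGGT, then the E-box CAGGTG and finally the TATA box motif TATAAA.
CD3D: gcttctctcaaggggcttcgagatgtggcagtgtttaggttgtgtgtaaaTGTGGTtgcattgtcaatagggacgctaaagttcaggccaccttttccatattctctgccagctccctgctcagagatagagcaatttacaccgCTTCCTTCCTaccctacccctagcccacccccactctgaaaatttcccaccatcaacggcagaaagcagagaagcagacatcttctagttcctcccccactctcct
CD247: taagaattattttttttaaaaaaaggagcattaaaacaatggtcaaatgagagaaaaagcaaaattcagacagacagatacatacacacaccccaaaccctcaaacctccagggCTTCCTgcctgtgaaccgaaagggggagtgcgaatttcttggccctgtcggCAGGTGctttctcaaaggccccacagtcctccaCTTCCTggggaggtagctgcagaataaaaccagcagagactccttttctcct
CD2: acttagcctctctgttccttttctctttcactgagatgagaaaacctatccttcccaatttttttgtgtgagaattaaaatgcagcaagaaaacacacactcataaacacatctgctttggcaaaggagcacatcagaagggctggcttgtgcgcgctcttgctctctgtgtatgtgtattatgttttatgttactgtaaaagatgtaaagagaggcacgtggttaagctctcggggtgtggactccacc
The CD3D window holds 2 overlapping matches to AGGAAG and 1 to TGTGGT. The CD247 window holds 2 matches to AGGAAG and 1 to CAGGTG, and the CD2 window holds 0 of the 5 motifs. Over 35116 RefSeq promoter windows of this length, AGGAAG occurs in 28.7%, CAGGTG in 17.5%, TGTGGT in 11%, TATAAA in 10.7% and AGATAA in 9.17%. GC content is 50.4% in CD3D, 45.6% in CD247 and 42.8% in CD2, against a median of 58% over all windows, and CG occurs 4, 3 and 4 times, against a median of 11. A match is a run of letters and not a shown binding site. Whether motifs go with the differences between numbers was not tested.

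The genes most alike to the 3 with the widest ranges were found by the smallest root mean square difference between profiles over 8 arrays, each profile centred on its own mean. For CD4 they were GPI (0.0709), PLOD1 (0.2) and TPSAB1 (0.233). GPI had number means of 10.36, 10.58, 11.56 and 12.57 for numbers 1 to 4. For CD247 they were SPINT2 (0.0844), GUCY2D (0.0908) and HLA-E (0.093), and for CD2 they were ALDH3A2 (0.138), LSS (0.194) and KIRREL1 (0.195). Among the 10 genes themselves the closest pairs were CD8B with CD7 (0.189) and CD3D with CD3E (0.194). All these profiles share the same 8 arrays, in which number 4 stands apart.

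Genes that act with the CD3 complex showed 0 members past the treatment threshold as well. Of 36 kinases, adaptors and effectors near the receptor 32 were measured, with 20 differences above 0, 12 below and a median of 0.03. Those with the smallest p without the block were PPP3CB, a calcineurin catalytic subunit, at 0.30 ± 0.25 (SE), the adaptor NCK1 at 0.21 ± 0.29 and RHOH, a GTPase that helps ZAP70 reach the receptor, at 0.10 ± 0.18. Of 20 inhibitors of the receptor's signals 18 were measured, 8 above 0 and 10 below, with a median of -0.01, and the phosphatase PTPN22 stood at -0.19 ± 0.29 and the ubiquitin ligase CBLB at 0.23 ± 0.24. Of 30 other T-cell surface proteins 28 were measured, 17 above 0 and 11 below, with a median of 0.03. Of 7 receptor chain genes only PTCRA, the pre-T-cell receptor alpha chain, was measured here, at -0.02 ± 0.18.

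Between numbers these lists moved in both directions. At number 4, 11 of the 32 signalling genes were higher and 8 lower, 8 and 5 of the 18 inhibitors, and 14 and 4 of the 28 other surface genes, against 26.3% higher and 25.5% lower over all probe sets. CD27, a costimulatory receptor, was higher by 2.18 ± 0.13 (SE) and SIT1, an adaptor that dampens receptor signals, by 1.31. SOS1, an exchange factor for RAS, was lower by -1.82 and MALT1, a paracaspase, by -1.6. CD1E, which takes part in lipid antigen handling in cortical thymocytes, was lower by -2.33 at number 4 and higher by 2.21 at number 3. At number 1, CD69, an early activation marker, was lower by -2.29 and THEMIS, a regulator of thymocyte selection, by -1.53. Each of these 7 genes passed an adjusted p of 0.05 by limma at the number named.

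CD4 is also used by myeloid cells and CD2 and CD7 by NK cells, so markers of other cells were read beside them. At number 4, 7 of 12 measured myeloid markers were higher and 0 lower, against 26.3% and 25.5% of all probe sets, with a median of 0.43, and the mean level of the list was 5.52 and 5.49 on the treated and untreated arrays of that number, against 4.97 to 5.06 on the other treated and 4.96 to 5.14 on the other untreated arrays. The summed level ran from 59.7 to 66.3 in treated and from 59.6 to 65.9 in untreated cells. CD68 was higher by 1.68 ± 0.13 (SE), and FCN1 by 0.92 ± 0.12. LYZ, S100A8, S100A9 and FCGR1A lay below the 95th percentile of olfactory receptors, and S100A8 and S100A9 are among the 7 called higher. Of those 7 only CD68 (mean level 7.11) lay above the highest olfactory receptor, at 6.51. CSF1R (6.49), FCN1 (6.38), CD14 (5.99) and CEBPA (4.95) lay below it and have less margin over background. LYZ and MPO each stood at -0.01 and did not pass. Of 12 NK and cytotoxic markers 4 were higher and 0 lower, a share near that of all probe sets, with a median of 0.27 and a summed level of 63.5 to 67.1 in treated and 63.7 to 67.7 in untreated cells. The 6 above the percentile were GZMA, NKG7, GZMB, PRF1, XCL1 and NCAM1. Of these NKG7 (mean level 9.20) was higher by 0.87 ± 0.11 (SE, limma, adjusted p = 0.0004). PRF1 and NCAM1 were each higher by 0.49 ± 0.15 (SE, limma, adjusted p = 0.0245 and 0.0244). KLRD1, KLRF1, KLRB1, GNLY, FCGR3A and FGFBP2 lay below the percentile, and FGFBP2 was also called higher. Of 8 B-cell markers 1 was higher and 2 lower, with a median of 0.11 and a summed level of 48.5 to 49.5 in treated and 48.3 to 49.3 in untreated cells. CD79A, CD79B, PAX5, BLK, CR2 and FCRL1 lay above the percentile and MS4A1 and BANK1 below it. CD79A (mean level 9.42) was the one called higher, by 0.59 ± 0.12 (SE, limma, adjusted p = 0.0036). The 2 called lower were CR2, by -0.53 ± 0.14, and MS4A1, by -0.365 ± 0.13 (SE, limma, adjusted p = 0.0154 and 0.0436). The part of these shifts in the differences of the T-cell genes was not tested.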

How the data were processed

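Gene expression was measured on Affymetrix arrays in 4 OICR-9429 and 4 untreated samples. The labelling kit was GeneChip WT PLUS, per the labels' protocols. The deposited values are log2 expression per probe set, made by the authors with RMA and Transcriptome Analysis Console, per the submitters' processing notes. Tool versions and genome build: not given in the sources used here. Scanner files were not used here, so background and scan batch were not examined.

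Gene symbols came from the platform's annotation and were updated by Entrez ID through RefSeq (GRCh38.p14): 17709 probe sets had 1 symbol, 0 several and 3739 none. limma 3.58.1 (R 4.3.3) was fitted with lmFit and eBayes on all 8 arrays and 21448 probe sets, with two-sided tests, Benjamini-Hochberg adjustment and a threshold of 0.05, for treatment without covariate and for number with treatment as a term. Where no block is named, treatment values are those without it. The fits were tested on simulated data. Deviations from the group means correlated between same-numbered arrays at 0.696, 0.748, 0.566 and 0.865 for numbers 1 to 4 across probe sets, all above the 0.1 set as the limit, so the numbers (from the sample titles) were taken to pair the samples. The highest correlation with an array of another number was 0.212, 0.216, 0.216 and -0.374.

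The members and lists were chosen with earlier results of these data known. Genes named beside the members were those of each list with the smallest p for treatment or number, of which only some are printed, and the 3 nearest profiles. Alternatives were the replicate block, arrays or numbers left out, trend and robust eBayes, a filter on dim probe sets, quantile normalization and no treatment term.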

Additional observations from a re-analysis of the deposited data

Results flagged for a closer look

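In the 20 groups of 4 arrays formed by 10 genes and both treatments, 3 arrays lay far from the other 3 of their group, with a gap to the nearest of 0.837 to 0.871 of the group's range, above Dixon's critical value for 4 samples. Chance gives about 1 such array in 20 independent groups, but these groups share the same 8 arrays and same-numbered arrays vary together, so that share is only a rough guide. CD3G in untreated replicate 4 measured 10.29, against 10.76 to 10.83 on the other untreated arrays, and the treated array of that number measured 10.51, the lowest of its group. CD2 in OICR-9429 replicate 3 measured 7.13, against 6.09 to 6.26 on the other treated arrays, and the untreated array of that number measured 7.16. CD5 in OICR-9429 replicate 4 measured 10.67, against 9.51 to 9.66 on the other treated arrays, and its untreated partner also measured 10.67.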

How the results depend on the processing

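The treatment comparison gave 0 of 10 genes and 0 of 21448 probe sets past the threshold in every alternative run, with 5 to 1191 probe sets at an unadjusted p of 0.05, the lowest with the dim filter and the highest with the replicate block, which changed no call. Direction is not settled for any of the 10 genes, since the interval of each with the block includes 0. The sign was not the same in all 4 pairs for 9 of the genes. CD8B had the same sign in all 4, as did 12.6% of all probe sets, but its interval with the block ran from -0.398 to 0.038. The ranges below are from the fit without the block. Leaving out 1 array there keeps its same-numbered partner, so differences between numbers enter every range, that of CD8B included. CD247, for example, differed by only 0.01 within number 4. Leaving out single arrays gave log2 differences from -0.197 to 0.055 for CD3D, -0.032 to 0.095 for CD3E, -0.077 to 0.12 for CD3G, -0.26 to 0.34 for CD247, -0.58 to 0.29 for CD4, -0.13 to 0.14 for CD8A, -0.37 to 0.064 for CD2, -0.43 to 0.075 for CD5 and -0.25 to 0.15 for CD7, while CD8B stayed between -0.31 and -0.06. With quantile normalization CD247 stood at -0.0023. How much of each range comes from the numbers was not tested.

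Leaving out single numbers, the F test between numbers called 2 to 7 of the 10 genes and 2979 to 10394 probe sets, lowest without number 4. With trend and robust eBayes the F test called 9 genes, against 7 in the main fit. The separate contrasts of 1 number against the mean of the others called 1 to 4 genes at number 1, 3 to 6 at number 2, 1 to 2 at number 3 and 5 to 6 at number 4. At number 3 trend and robust eBayes called 5 genes, the dim filter 2 and quantile normalization 0, against 1. At number 4 CD2 ran from -0.21 to 0.36. CD8B lost its call with trend and robust eBayes (adjusted p = 0.0522, limma) and, like CD7, without number 2, and CD3G lost its call without number 1 or 3. CD3E gained one with trend and robust eBayes (adjusted p = 0.015, limma). The mean over a gene's probe sets was not run apart, since each of the 10 genes has 1 probe set, and the dim filter left out CD8A and CD8B. Signal over background is not known, which limits CD8A, CD8B and CD2 most, and 2 arrays a number limit the rest.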

Other observations

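Binding partners of the T-cell proteins were read in the same arrays. Of 13 partner genes 11 were measured, and 0 passed the treatment threshold. CD58 and CD48, which both bind CD2 (CD48 mainly in rodents), went opposite ways at number 4: CD58 was lower by -1.04 ± 0.12 and CD48 higher by 0.98 ± 0.15 (SE, limma, adjusted p = 0.00028 and 0.00091). At number 1 CD48 was lower by -1.98. HLA-DRA and HLA-DRB1, which encode MHC class II chains bound by CD4, had mean levels of 3.01 and 4.45, below the 95th percentile of olfactory receptors. SECTM1, a partner of CD7 and its neighbour in the genome, had a mean level of 4.87, just above that percentile of 4.82.

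Coding genes up to 2 places away from the T-cell genes in the RefSeq annotation were looked up after the values had been seen. Of 25 such measured genes 8 were higher and 6 lower at number 4, against 26.3% and 25.5% of all probe sets, so the counts are near the background of these arrays. CD6, which lies next to CD5 and encodes a related receptor, was higher there by 1.48 ± 0.14 (SE). Every neighbour of CD4 that was looked up was also higher at number 4. PTMS was higher by 0.74 ± 0.11, LAG3 by 0.64 ± 0.15, GPR162 by 1.14 ± 0.17 and P3H3 by 0.66 ± 0.11 (SE). Whether this stretch moved together with CD4 was not tested. UBE4A, next to CD3G, was lower by -1.19 ± 0.12, while ATP5MG, the next gene on that side, stood at 0.22 ± 0.11 and did not pass. CD3G lay below the other numbers and CD3D above them, but CD3G lost its call in several alternatives.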
